A study of Mus musculus with 6 samples.

Results

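Cholesterol synthesis and the genes of its control by sterol regulatory element binding proteins (SREBPs) were followed in spinal cord of WT mice, taken at lumbar segments L4 to L5. The members were 28 genes chosen by symbol. They comprise 18 enzymes of the sterol path, 5 genes of SREBP control, 1 sterol carrier and 4 genes of fatty acid synthesis. They were read from a table of 52513 genes, and all 28 passed the filter that left 14614 genes for testing. There were 3 libraries from mice given morphine (10 µg in 10 µL) by intrathecal injection for 7 days, and 3 from mice given saline by the same route for 7 days. The sources used here do not give age, sex, strain or the number of animals behind a library, which the labels number in runs such as control-1-2-3. The p-values therefore measure the spread between these libraries, which may be partly technical.

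Cells build cholesterol from acetyl-CoA through mevalonate, farnesyl diphosphate, squalene and lanosterol. When sterols in the endoplasmic reticulum run low, the escort protein Scap carries SREBP to the Golgi, where proteases release a fragment that switches on the genes of the path. When sterols are plentiful, the Insig proteins hold Scap back. Plasma cholesterol does not cross the blood-brain barrier, so the central nervous system makes its own, and oligodendrocytes that build myelin are known as heavy users.

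The values are FPKM, in which fragment counts are divided by the length of the transcript and by the size of the library, so levels can be compared between genes. The FPKM of all genes summed to 741145, 722161 and 720234 in morphine 1, 2 and 3 and to 664464, 670280 and 662470 in saline 1, 2 and 3. Depth, as estimated from the spacing of low values, was 19.9, 17.8 and 18.6 M fragments in morphine 1, 2 and 3 and 21.5, 26.1 and 21.2 M in saline 1, 2 and 3. The member with the fewest fragments, Hsd17b7 in morphine 3, had about 467, and Scd2 in saline 2 had about 83738. The tissue label was checked against markers: the myelin gene Mbp lay between 8256 and 13192 FPKM, while 7 of 8 markers of fat and liver, tissues rich in these enzymes, were at 0.21 FPKM or less in every library. The eighth, Apoa1, lay between 1.13 and 2.15 FPKM. Motor neuron markers differed between libraries within each group, and their values are given with the members below.

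The comparison of morphine with saline asks whether the path changed after the morphine course. In limma, 0 of the 28 members passed an adjusted p of 0.05, against 1.51% of all tested genes (0.561% lower and 0.944% higher in morphine), and 7 had an unadjusted p under 0.05, which is 25% of them against 22.3% of all tested genes. All 7 were lower in morphine, against 11.1% of all tested genes. The differences nevertheless pointed mostly one way. Of the 28 members, 25 had a lower mean log2 level in morphine, against 53.1% of all tested genes. The median log2 fold change of the members was -0.20, against -0.02 over all tested genes. Fold changes are on the log2(FPKM + 1) scale throughout. Members varied together between libraries, as shown further on, so the 25 are not independent observations. Morphine and saline did not overlap in 8 members (28.6%), against 28.7% of all tested genes. Of these, 7 were lower in morphine and 1 was higher, against 15.7% and 13% of all tested genes. The share without overlap in either direction was therefore near the background.

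**Figure D1:**
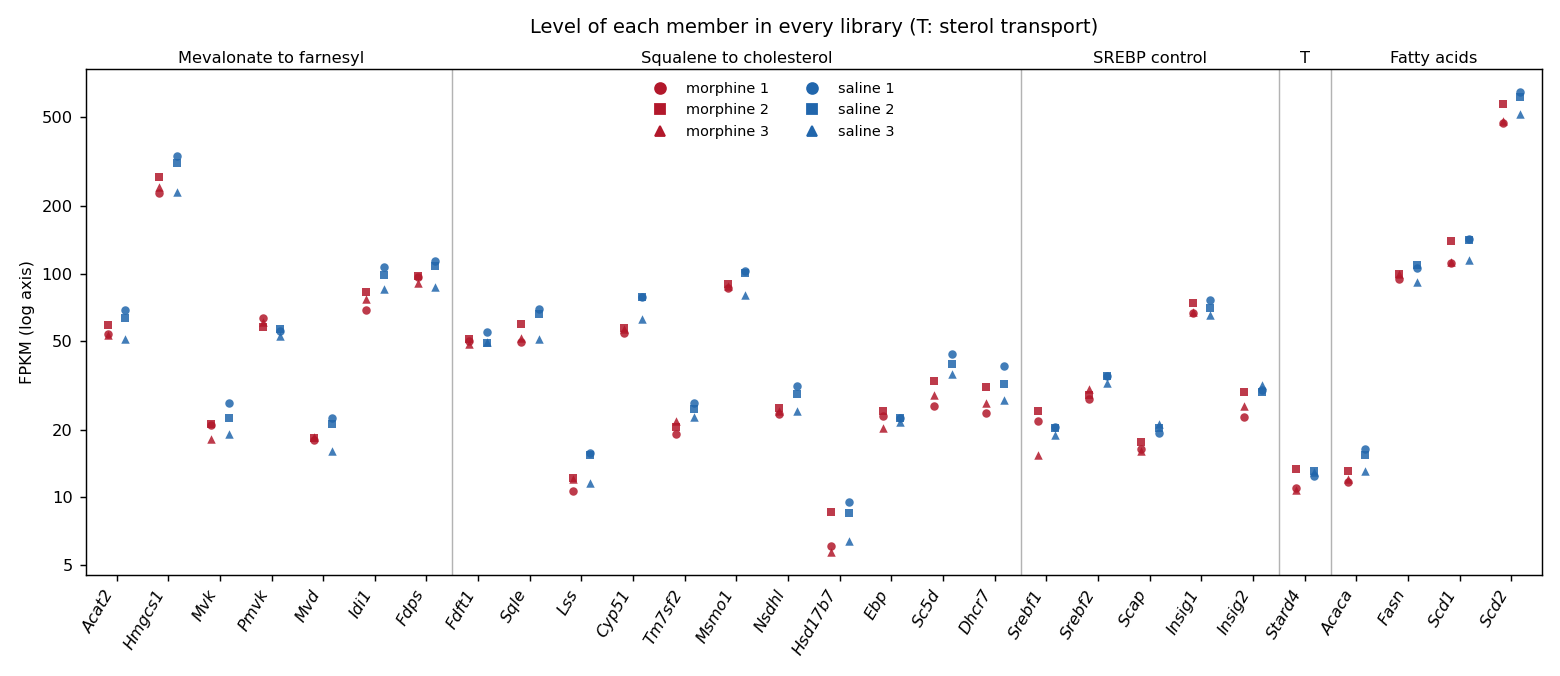
FPKM of the 28 members on a log axis, in pathway order, with 1 point per library (morphine red, left; saline blue, right; circles, squares and triangles are libraries 1, 2 and 3; T marks the sterol carrier Stard4). Levels ran from 5.72 FPKM for Hsd17b7 in morphine 3 to 646 FPKM for Scd2 in saline 1, and for most enzymes the saline triangle lies below the other saline points.

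The first stage, from acetyl-CoA to farnesyl diphosphate, had 6 of 7 members with a lower mean log2 level in morphine and a median log2 fold change of -0.13. Hmgcs1, the cytosolic HMG-CoA synthase, was the member of this stage with the highest level. It was at 230, 269 and 245 FPKM in morphine 1, 2 and 3 and at 337, 312 and 231 FPKM in saline 1, 2 and 3. Saline 1 and 2 were above every morphine library, whereas saline 3 lay among them, so the groups overlapped (log2 fold change -0.23, SE 0.14, 95% interval -0.56 to 0.10, limma adjusted p = 0.384). Its spread in saline, an SD of 0.29 in log2 units, was the largest of any member in that group.

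Idi1, which interconverts the 2 five-carbon isoprene units, had the lowest log2 fold change in this stage. Its levels were 69.0, 82.4 and 76.7 FPKM in morphine 1, 2 and 3 and 107, 98.1 and 85.7 FPKM in saline 1, 2 and 3. The groups did not overlap, and the closest pair was morphine 2 and saline 3. The log2 fold change was -0.34 (SE 0.10, 95% interval -0.58 to -0.11) with a limma adjusted p of 0.105. Of the 50-base stretches of its longest transcript, 21.3% also occur in the annotated copy Gm13502, which was at 3.20 to 9.50 FPKM, and another gene overlaps its exons on the opposite strand. The sources used here do not say how fragments were divided between such genes.

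Pmvk, phosphomevalonate kinase, was the 1 member with higher values in every morphine library. It was at 63.3, 57.8 and 61.0 FPKM in morphine 1, 2 and 3 and at 55.5, 56.9 and 52.5 FPKM in saline 1, 2 and 3. The closest pair was morphine 2 and saline 2. The log2 fold change was 0.14 (SE 0.06, 95% interval -0.001 to 0.28; limma adjusted p = 0.227). Its longest transcript, 1194 nt, and its exonic length, 1713 bases, are the shortest among the members. Fold changes were lower in genes with longer exonic length, with Spearman's rho of -0.36 across the 28 members and -0.31 across 14588 tested genes, which are not independent replicates. With the trend on exonic length removed from each library, the log2 fold change of Pmvk was 0.046 (limma adjusted p = 0.708). With every library scaled to the same total it was 0.016 (limma adjusted p = 0.877). The part of length in this difference was not tested.

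The other members of this stage overlapped between the groups. Acat2, the cytosolic thiolase of the first condensation, averaged 55.4 ± 3.32 FPKM in morphine and 61.1 ± 9.16 in saline (SD, n = 3 each). Its value is uncertain, because 45.9% of its 50-base stretches also occur in the neighbouring copy Acat3, which was at 4.08 to 4.17 FPKM in morphine and 2.18 to 3.31 in saline. Mvk, mevalonate kinase, averaged 20.2 and 22.8 FPKM in morphine and saline. Mvd, the decarboxylase that follows Pmvk, averaged 18.4 ± 0.252 FPKM in morphine and 20.04 ± 3.49 in saline. Fdps, which joins the units into farnesyl diphosphate, averaged 94.7 and 103 FPKM in morphine and saline. The limma adjusted p of these 4 genes ran from 0.476 to 0.651.

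The second stage, from farnesyl diphosphate to cholesterol, had 10 of 11 members with a lower mean log2 level in morphine and a median log2 fold change of -0.23. Cyp51, which removes a methyl group from lanosterol, had the smallest p of all members. It was at 54.2, 57.3 and 56.4 FPKM in morphine 1, 2 and 3 and at 78.4, 79.0 and 62.9 FPKM in saline 1, 2 and 3. No morphine library reached a saline library, and saline 3 stood between the morphine libraries and the other two saline libraries. The ratio of means was 0.762 and the log2 fold change -0.38 (SE 0.09, 95% interval -0.60 to -0.16), with a limma adjusted p of 0.0794.

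Sc5d, a desaturase of the sterol ring, had the lowest ratio of means among the members, 0.737. It was at 25.7, 33.3 and 28.5 FPKM in morphine 1, 2 and 3 and at 43.6, 39.6 and 35.5 FPKM in saline 1, 2 and 3. The groups did not overlap, with morphine 2 close under saline 3. The log2 fold change was -0.43 (SE 0.11, 95% interval -0.70 to -0.16; limma adjusted p = 0.0871). It was the 1 member that passed when morphine 2 was left out (limma adjusted p = 0.0435, when 5.51% of all tested genes passed). With any of the other 5 libraries left out 0 members passed, when only 0.00684% to 0.0547% of all tested genes did.

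Tm7sf2, a sterol reductase, was the third enzyme of this stage without overlap. It was at 19.3, 20.7 and 22.0 FPKM in morphine 1, 2 and 3 and at 26.5, 24.8 and 22.8 FPKM in saline 1, 2 and 3. The log2 fold change was -0.25 (SE 0.08; limma adjusted p = 0.135), and its exons overlap those of Vps51 on the same strand. Tm7sf2 shares its enzyme step with the lamin B receptor, which lies outside the members.

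The remaining 8 enzymes of this stage overlapped between the groups. In Sqle, Lss, Msmo1, Nsdhl and Dhcr7 the overlap came from saline 3 alone, which lay within or below the morphine libraries. Sqle, squalene epoxidase and a control point of the path, was at 49.6, 59.6 and 51.5 FPKM in morphine 1, 2 and 3 and at 69.3, 66.0 and 51.2 FPKM in saline 1, 2 and 3. Lss, which closes the rings to lanosterol, was at 10.7, 12.3 and 12.1 FPKM in morphine and at 15.9, 15.5 and 11.6 FPKM in saline. For both genes saline 1 and 2 stood well above all morphine libraries (limma adjusted p = 0.381 for Sqle and 0.269 for Lss).

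Dhcr7, which makes cholesterol from its immediate precursor, averaged 27.0 ± 3.68 FPKM in morphine and 32.7 ± 5.71 in saline (SD, n = 3 each). Msmo1, a methyl sterol oxidase, averaged 87.9 ± 1.68 FPKM in morphine and 94.4 ± 12.3 in saline. Nsdhl, a sterol dehydrogenase, averaged 24.4 ± 0.751 FPKM in morphine and 28.3 ± 3.64 in saline. In each of these 3 genes saline had the larger SD. Hsd17b7, the ketoreductase of the same complex, was the lowest member at 6.79 ± 1.58 FPKM in morphine and 8.14 ± 1.62 in saline. Fdft1, squalene synthase, and Ebp, a sterol isomerase, had the smallest differences in this stage. Fdft1 averaged 49.8 and 51.1 FPKM in morphine and saline, with a 95% interval of the log2 fold change from -0.19 to 0.12. Ebp averaged 22.6 and 22.3 FPKM in morphine and saline, with an interval from -0.17 to 0.20.

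**Figure D2:**
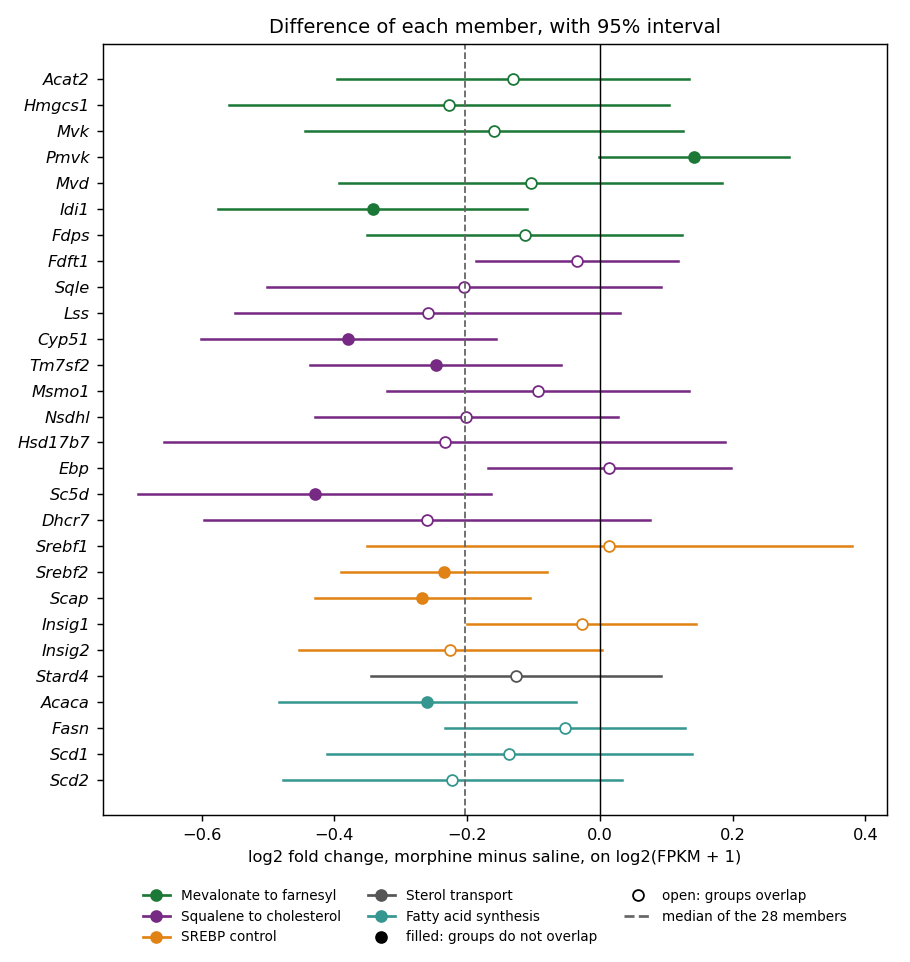
Log2 fold change of each member, morphine minus saline, with its 95% interval from limma, in pathway order from top to bottom. Filled points mark the 8 members whose groups did not overlap; the dashed line is the median of the 28 members, -0.20, and 25 points lie left of 0.

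Of the 5 genes of SREBP control, 4 had a lower mean log2 level in morphine. Srebf2 encodes the SREBP that mainly drives sterol genes. It was at 27.4, 28.7 and 30.6 FPKM in morphine 1, 2 and 3 and at 35.0, 35.0 and 32.6 FPKM in saline 1, 2 and 3. Every morphine library was below every saline library (log2 fold change -0.24, SE 0.07, 95% interval -0.39 to -0.08, limma adjusted p = 0.0984).

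Scap, the escort of SREBP, was likewise apart, at 16.4, 17.7 and 16.1 FPKM in morphine 1, 2 and 3 and at 19.3, 20.5 and 21.2 FPKM in saline 1, 2 and 3. The log2 fold change was -0.27 (SE 0.07, 95% interval -0.43 to -0.10; limma adjusted p = 0.0843). In Scap, saline 3 was the highest library, in contrast to the enzymes. Its exons overlap those of an opposite-strand transcript, and the sources used here do not say whether counting was stranded. Opposite-strand overlaps of exons, of differing length, also exist for Hmgcs1, Fdft1, Lss, Cyp51 and Srebf1, as for Idi1 above.

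Srebf1 encodes the SREBPs that mainly drive fatty acid genes, and it varied most within morphine. It was at 22.0, 24.4 and 15.4 FPKM in morphine 1, 2 and 3 and at 20.6, 20.5 and 19.1 FPKM in saline 1, 2 and 3. The 3 saline values lay inside the range of the morphine values, and the log2 fold change was 0.01 (95% interval -0.35 to 0.38). Insig1, itself a target of SREBP, averaged 69.2 ± 3.83 FPKM in morphine and 70.6 ± 5.21 in saline (SD, n = 3 each), with a 95% interval from -0.20 to 0.15. Insig2 was at 22.9, 29.7 and 25.6 FPKM in morphine 1, 2 and 3 and at 30.1, 29.6 and 31.8 FPKM in saline 1, 2 and 3. Its groups overlapped through morphine 2 (limma adjusted p = 0.230). The level of Insig1 was 2.48 to 2.91 times that of Insig2 in the morphine libraries and 2.06 to 2.52 times in the saline libraries.

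Stard4, a soluble sterol carrier and SREBP target, averaged 11.8 ± 1.46 FPKM in morphine and 12.9 ± 0.352 in saline (SD, n = 3 each; limma adjusted p = 0.463). All 4 genes of fatty acid synthesis had a lower mean log2 level in morphine. Acaca, acetyl-CoA carboxylase, was at 11.8, 13.1 and 12.1 FPKM in morphine 1, 2 and 3 and at 16.4, 15.5 and 13.2 FPKM in saline 1, 2 and 3. The groups were separated only by the gap between 13.14 FPKM in morphine 2 and 13.15 in saline 3 (log2 fold change -0.26, SE 0.10, limma adjusted p = 0.173). Of its 50-base stretches, 52.6% also occur in an annotated copy, Gm5182, and the deposited values hold no gene of that symbol, so its level is uncertain.

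Scd2, the stearoyl-CoA desaturase of brain and other tissues, had the highest level of any member. It was at 470, 572 and 479 FPKM in morphine 1, 2 and 3 and at 646, 614 and 516 FPKM in saline 1, 2 and 3 (limma adjusted p = 0.279). Its relative Scd1 was at 112, 140 and 112 FPKM in morphine and at 142, 142 and 116 FPKM in saline. In both, morphine 2 was above saline 3. Fasn, the fatty acid synthase, averaged 98.2 ± 2.85 FPKM in morphine and 102 ± 9.53 in saline (SD, n = 3 each), with a 95% interval of its log2 fold change from -0.23 to 0.13.

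The list varied between libraries of the same group. Each member's level in a library was set against its own mean over the 6 libraries, in log2 units. The median deviation of the 28 members was -0.17, 0.00158 and -0.13 in morphine 1, 2 and 3 and 0.23, 0.14 and -0.09 in saline 1, 2 and 3. The same median over all tested genes stayed between -0.02 and 0.03. Saline 1 held the highest value of 19 of the 28 members, and of 15 of the 18 sterol path enzymes, against 14.5% of all tested genes. Morphine 1 held the lowest value of 14 members, against 20.2% of all tested genes.

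Saline 3, whose label control-7-8 is a shorter run than those of saline 1 and 2, stood apart from the other saline libraries. It was below both of them in 24 of the 28 members, against 30.2% of all tested genes, and the exceptions were Fdft1, Scap, Insig2 and Stard4. Saline 1 and 2 were both above all 3 morphine libraries in 20 members, against 20.9% of all tested genes. Saline 3 lay within the range of the morphine libraries in 13 members, above it in 8 and below it in 7, against 39.2%, 35.5% and 25.4% of all tested genes, so this order was near the background. Within morphine, morphine 2 was above the other libraries in 24 members, against 32.1% of all tested genes, with Pmvk, Mvd, Tm7sf2 and Srebf2 as the exceptions.

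In saline the enzymes had wider spreads than the control genes. The median SD between saline libraries was 0.22 in the first stage and 0.18 in the second stage, against 0.06 in the control genes and 0.10 over all tested genes, in log2 units. Between morphine libraries the median SD was 0.08 in the first stage, 0.10 in the second stage and 0.08 in the control genes, against 0.12 over all tested genes. The median deviation of the control genes was 0.10, 0.07 and 0.05 in saline 1, 2 and 3, whereas that of the 18 enzymes was 0.27, 0.14 and -0.14. This contrast was not tested.

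**Figure D3:**
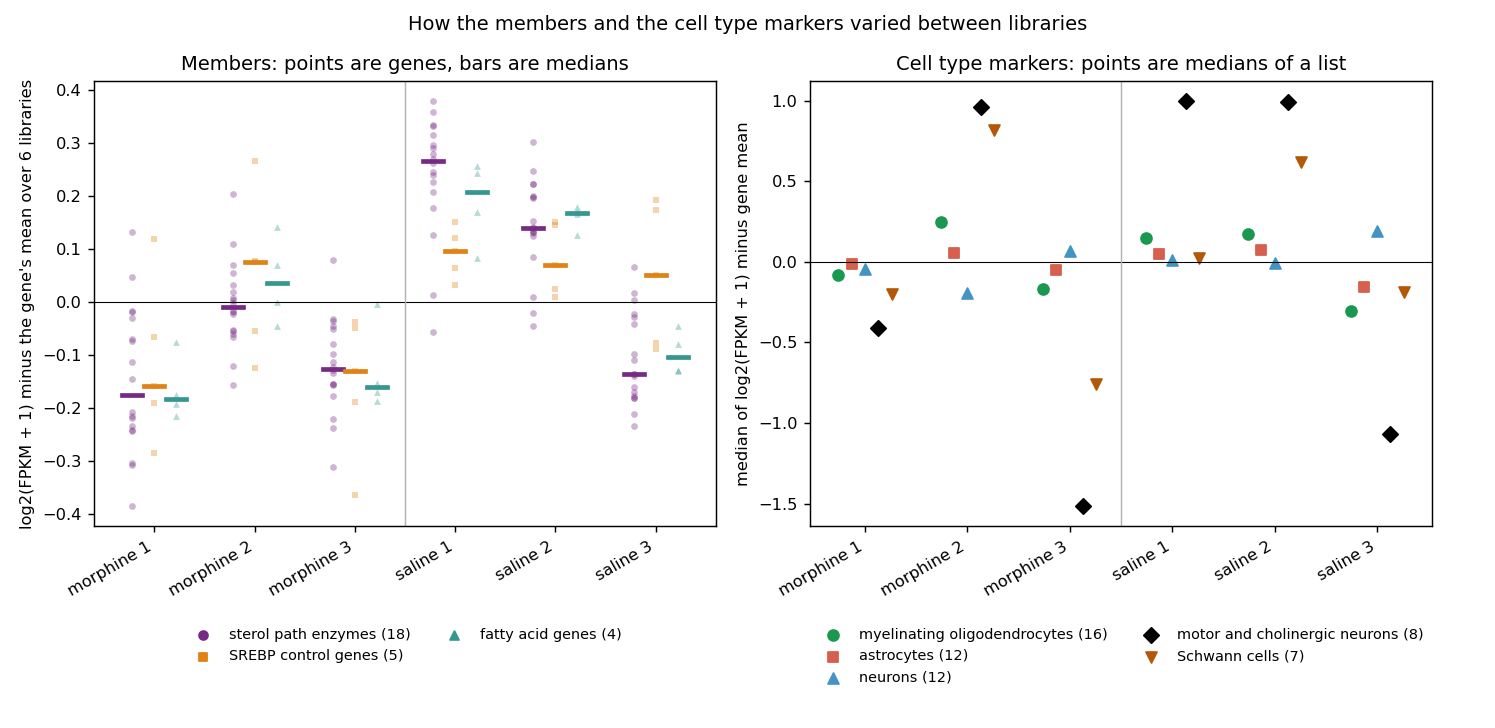
Left, log2(FPKM + 1) of members minus each gene's mean over the 6 libraries, by library; points are genes and bars are medians of the sterol path enzymes, the SREBP control genes and the fatty acid genes. Right, the same quantity as the median of 5 lists of cell type markers; the enzyme medians are 0.27 and 0.14 in saline 1 and 2 and -0.14 in saline 3, and the myelin and motor neuron markers are also above 0 in saline 1 and 2 and below 0 in saline 3.

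Cell type markers also varied between libraries of the same group. For the counts below, 1.51% of all tested genes passed and 22.3% had an unadjusted p under 0.05 in limma. The 16 markers of myelinating oligodendrocytes had median deviations of -0.08, 0.25 and -0.17 in morphine 1, 2 and 3 and of 0.15, 0.17 and -0.30 in saline 1, 2 and 3. Their summed level ran from 18969 to 25674 FPKM in morphine and from 16464 to 24068 FPKM in saline, and 0 of the 16 passed limma's test, with 0 at an unadjusted p under 0.05. The 8 tested markers of motor and cholinergic neurons had median deviations of -0.41, 0.96 and -1.51 in morphine and of 0.996, 0.993 and -1.07 in saline, and their summed level ran from 48.7 to 258 FPKM in morphine and from 61.2 to 266 FPKM in saline. All 8 had a negative log2 fold change, with a median of -0.60, and 0 passed, with 0 at an unadjusted p under 0.05.

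The 7 tested Schwann cell markers had median deviations of -0.20, 0.82 and -0.76 in morphine 1, 2 and 3 and of 0.02, 0.62 and -0.19 in saline 1, 2 and 3, and 0 passed, with 0 at an unadjusted p under 0.05. The 12 astrocyte markers had median deviations of -0.01, 0.05 and -0.05 in morphine and 0.05, 0.08 and -0.16 in saline, with 6 negative and 6 positive log2 fold changes. Of the 12, 5 had an unadjusted p under 0.05, against 22.3% of all tested genes. The 1 astrocyte marker that passed, Sox9, was higher in morphine (log2 fold change 0.48, SE 0.08, limma adjusted p = 0.0463). The others of the 5 went both ways. Aldoc and Agt were higher, with log2 fold changes of 0.21 and 0.26 (limma adjusted p = 0.0675 and 0.157). Aqp4 and Slc1a2 were lower, at -0.33 and -0.16 (limma adjusted p = 0.134 and 0.136). Aldoc, Aqp4 and Slc1a2 did not overlap between the groups, whereas Agt did. The 12 neuron markers had median deviations of -0.04, -0.19 and 0.07 in morphine and 0.01, -0.01 and 0.19 in saline, and 0 passed. An unadjusted p under 0.05 was found in 2 of the 12, against 22.3% of all tested genes, and both were lower in morphine. Slc6a5 had a log2 fold change of -0.57 (limma adjusted p = 0.0574), without overlap. Slc32a1 had one of -0.23 (limma adjusted p = 0.185), with overlap. Of the 6 endothelial markers, 5 had a negative log2 fold change, with a median of -0.32, and 0 passed. An unadjusted p under 0.05 was found in 3 of the 6, against 22.3% of all tested genes. The summed level of the 6 was 44.2, 58.5 and 48.5 FPKM in morphine 1, 2 and 3 and 56.0, 54.4 and 54.5 FPKM in saline 1, 2 and 3. Pecam1, an adhesion molecule of these cells, was at 2.69, 3.85 and 3.21 FPKM in morphine and at 5.09, 5.22 and 5.29 FPKM in saline (log2 fold change -0.55, limma adjusted p = 0.0589).

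Of the 8 markers of meninges and fibroblasts, 7 had a negative log2 fold change, with a median of -0.63, and 0 passed, with 0 at an unadjusted p under 0.05. Of the 12 markers of oligodendrocyte precursors and new oligodendrocytes, 7 had a negative log2 fold change, with a median of -0.02, and 0 passed. An unadjusted p under 0.05 was found in 2 of the 12, against 22.3% of all tested genes. Of these 2, Gpr17 had a log2 fold change of -0.58 (limma adjusted p = 0.0652) and Cspg4 had one of 0.22 (limma adjusted p = 0.209), both without overlap. Of the 11 markers of microglia and macrophages, 8 had a negative log2 fold change, with a median of -0.07, and 0 passed. An unadjusted p under 0.05 was found in 1 of the 11, against 22.3% of all tested genes. This was Aif1, which was higher in morphine (log2 fold change 0.46, limma adjusted p = 0.171), with overlap between the groups. Saline 1, saline 2 and morphine 2 were high in myelin and motor neuron markers, and the members were highest in saline 1 and 2 and at an intermediate level in morphine 2. Aldoc, Agt, Aqp4, Slc1a2, Slc6a5, Slc32a1, Pecam1, Gpr17, Cspg4 and Aif1 were singled out after their values were seen. The part of these markers in the members' values was not tested. In bulk tissue, fewer cells of a type and less RNA per cell cannot be told apart.

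Single libraries set how many members had an unadjusted p under 0.05. Without saline 3 there were 18 of 28, against 19.7% of all tested genes, and without morphine 2 there were 13, against 27.2%. Without saline 1 or without morphine 1 there were 5, against 16% and 16.3% of all tested genes. The scaling between libraries mattered for the call. Rescaling to TPM, a scale on which every library sums to the same total, moved the median log2 fold change of all tested genes to -0.13, against -0.02 without it, and the members' median to -0.33. In that scaling 17 members had an unadjusted p under 0.05, against 31.4% of all tested genes, and 6 passed, against 6.53% of all tested genes, all 6 of them lower in morphine: Cyp51, Sc5d, Idi1, Tm7sf2, Srebf2 and Scap (limma adjusted p from 0.0394 to 0.0493). Relative to the shift of all genes, the members' median was thus close to that without rescaling.

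Genes around the path were taken from lists of related function. Of 14 tested sterol enzymes and sterol targets outside the members, 0 passed, and the median log2 fold change was -0.09. The log2 fold change was negative in 9 and positive in 5. An unadjusted p under 0.05 was found in 5 of the 14, against 22.3% of all tested genes in either direction. Among those at that level, Acat1 alone was higher in morphine and the others were lower. Acat1, the mitochondrial thiolase that acts mainly in ketone and isoleucine breakdown, had the smallest p among them. It was at 51.3, 46.8 and 49.6 FPKM in morphine 1, 2 and 3 and at 37.6, 39.9 and 39.2 FPKM in saline 1, 2 and 3 (log2 fold change 0.33, SE 0.06, limma adjusted p = 0.0506), the opposite direction to its cytosolic counterpart Acat2. Of 16 genes that use farnesyl and geranylgeranyl diphosphate, 0 passed. Icmt, which methylates prenylated proteins, averaged 14.5 FPKM in morphine and 16.6 in saline (limma adjusted p = 0.149), and Pggt1b, a prenyltransferase subunit, averaged 1.69 and 2.38 FPKM in morphine and saline (limma adjusted p = 0.155).

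Of 21 genes that process SREBP or degrade sterol-regulated proteins, 0 passed, and 8 had an unadjusted p under 0.05, all lower in morphine, against 22.3% of all tested genes in either direction and 11.1% lower. Hdlbp, an RNA-binding protein also named vigilin, was at 26.0, 29.4 and 27.1 FPKM in morphine 1, 2 and 3 and at 37.1, 36.4 and 33.6 FPKM in saline 1, 2 and 3 (log2 fold change -0.36, SE 0.07, limma adjusted p = 0.0551). Paqr3, reported to anchor Scap in the Golgi, was at 2.29, 2.36 and 3.03 FPKM in morphine and at 4.45, 3.88 and 5.14 FPKM in saline (log2 fold change -0.62, SE 0.13, limma adjusted p = 0.0580). In both genes the groups did not overlap.

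The calls lay in fatty acid and lipoprotein genes outside the members. Of 20 tested genes of fatty acid synthesis and SREBP1 targets, 2 fell and 0 rose, against 0.561% and 0.944% of all tested genes, with a median of -0.13. Fads2, the delta-6 desaturase of polyunsaturated fatty acids, fell to 29.3, 34.5 and 34.3 FPKM in morphine 1, 2 and 3, against 53.0, 53.9 and 54.4 FPKM in saline 1, 2 and 3 (log2 fold change -0.70, SE 0.08, limma adjusted p = 0.0361). Elovl6, an elongase of saturated fatty acids, fell to 13.5, 13.9 and 14.8 FPKM in morphine, against 19.5, 18.3 and 19.3 FPKM in saline (log2 fold change -0.41, SE 0.06, limma adjusted p = 0.0462). Over all 20 genes of the list, the median deviation was -0.15, 0.06 and -0.13 in morphine 1, 2 and 3 and 0.19, 0.13 and -0.09 in saline 1, 2 and 3, so saline 3 was low in this list as it was among the sterol enzymes. Of 27 genes of sterol efflux, transport and turnover, 1 fell and 0 rose, against the same shares of all tested genes. This was Scarb1, a receptor for high-density lipoprotein, at 6.57, 6.57 and 6.25 FPKM in morphine and 9.20, 9.23 and 8.82 FPKM in saline (log2 fold change -0.43, SE 0.07, limma adjusted p = 0.0462). These 3 calls, like that of Sox9, held without morphine 2 and were lost with any of the other 5 libraries left out. Without morphine 2, 5.51% of all tested genes passed, whereas 0.00684% to 0.0547% did with 1 of the other 5 left out. Few calls of any gene were thus left in those 5 settings. With a library left out, the log2 fold change was -0.74 to -0.63 for Fads2, -0.45 to -0.39 for Elovl6 and -0.45 to -0.41 for Scarb1. With no filter on low values 0 of the 4 passed, against 0.0286% of all genes in that fit. After quantile normalization Fads2 and Sox9 passed, against 0.698% of all tested genes. Without the intensity trend, with a replicate block or with a length trend removed, Fads2 alone of the 4 passed. The shares of all genes were then 0.246%, 0.164% and 0.226%. Over all settings the limma adjusted p ran from 0.0193 to 0.146 for Fads2, from 0.0293 to 0.154 for Elovl6 and from 0.0286 to 0.155 for Scarb1.

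The members were listed as cholesterol synthesis genes and SREBP targets, so letters shared by their promoters are not independent of that choice. Promoter windows from 250 bases before to 50 bases after a start were found in RefSeq (GRCm38.p6) for 22 of the 28 members, with 30 windows in all. The NF-Y box CCAAT, bound by a factor that works beside SREBP, was present on either strand in 19 of the 22 (86.4%), against 41.1% of all 27025 genes with a window and 42.9% of the tested ones. The Sp1 box GGGCGG was likewise present in 19 (86.4%), against 38.2% of all genes and 69.0% of the tested ones. The E-box CACGTG was present in 5 (22.7%), against 8.09% and 11.7%. The sterol regulatory element core TCACNCCAC was present in 1, Hmgcs1, against 1.44% and 1.41%. Sterol elements spelled otherwise, or lying outside the windows, would be missed, so the members without this match may still hold one. No window was found for Fdps, Fdft1, Sqle, Stard4, Scd1 and Scd2. These are matches of letters and not measured binding.

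The 150 bases before the start are shown for Hmgcs1, which holds the sterol element core. They are also shown for the 5 members with 1 window among the 6 with the smallest p, of which 0 passed the threshold. Each is written 5′ to 3′ on the strand of the gene, with the motifs above, on either strand, in capitals (CCAAT reads ATTGG and GGGCGG reads CCGCCC on the other strand).
Hmgcs1, chr13:119690201-119690350, plus strand: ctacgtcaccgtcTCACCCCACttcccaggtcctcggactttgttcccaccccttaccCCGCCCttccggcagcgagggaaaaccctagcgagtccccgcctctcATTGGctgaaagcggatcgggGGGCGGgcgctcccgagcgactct
Idi1, chr13:8885456-8885605, plus strand: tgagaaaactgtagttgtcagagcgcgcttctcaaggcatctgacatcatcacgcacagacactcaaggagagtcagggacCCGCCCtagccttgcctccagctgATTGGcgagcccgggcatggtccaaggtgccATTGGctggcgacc
Cyp51, chr5:4104698-4104847, minus strand: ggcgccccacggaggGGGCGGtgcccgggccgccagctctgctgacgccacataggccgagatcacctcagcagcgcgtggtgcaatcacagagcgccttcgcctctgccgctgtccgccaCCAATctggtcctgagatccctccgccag
Tm7sf2, chr19:6067851-6068000, minus strand: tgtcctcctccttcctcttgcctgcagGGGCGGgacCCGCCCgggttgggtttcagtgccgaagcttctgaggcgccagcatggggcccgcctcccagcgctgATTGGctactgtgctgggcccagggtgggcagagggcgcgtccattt
Sc5d, chr9:42264301-42264450, minus strand: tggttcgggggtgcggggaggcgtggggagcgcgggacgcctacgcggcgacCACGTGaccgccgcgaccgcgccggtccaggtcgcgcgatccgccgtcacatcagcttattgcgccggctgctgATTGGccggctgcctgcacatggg
Srebf2, chr15:82147119-82147268, plus strand: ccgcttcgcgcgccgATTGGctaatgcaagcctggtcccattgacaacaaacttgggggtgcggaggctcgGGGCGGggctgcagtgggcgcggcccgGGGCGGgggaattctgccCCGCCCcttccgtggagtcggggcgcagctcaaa

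**Figure D4:**
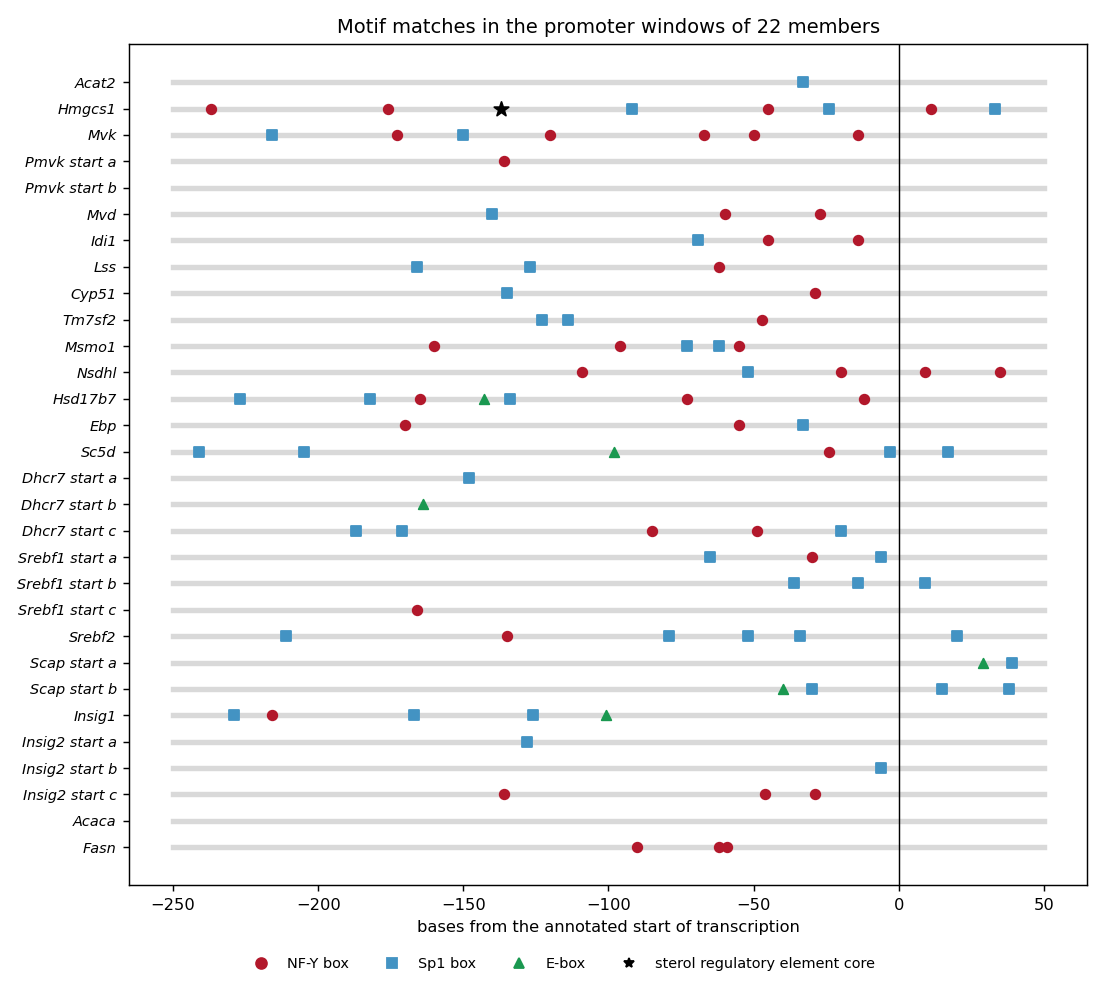
Matches of 4 motifs, on either strand, in the 30 promoter windows of 22 members, by distance in bases from the annotated start; genes with several annotated starts have 1 row per start. Of 42 CCAAT matches, 26 lie within 100 bases before a start, in 16 members. In these windows the exact letters TCACNCCAC are found in Hmgcs1 alone, and other forms of the sterol element were not searched.

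Within the 22 members, CCAAT matches numbered 42, of which 39 lay before a start and 26 within 100 bases of it. The members without a CCAAT match were Acat2, Scap and Acaca. All 6 stretches shown carry a CCAAT match, and 5 of them also carry an Sp1 box.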

How the data were processed

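The 6 libraries were prepared from total RNA with a stranded KAPA kit after PureLink and Trizol extraction, per the labels. The submitters' processing notes name STAR, RSEM, Trimmomatic, bcl2fastq 2.19.0 and build mm10. The sources used here do not give other versions, the annotation or the use of strand. The FPKM values were deposited by the authors and kept on their scale. A gene was tested if 3 or more of the 6 libraries reached 1 FPKM. The test was limma 3.58.1 in R 4.3.3 on log2(FPKM + 1) of the deposited values, two-sided, with the prior variance following the mean level. P-values were adjusted by Benjamini-Hochberg over 14614 genes, and the threshold was 0.05. On simulated data, with noise independent between genes, the test recovered 62.7% of genes changed 1.5-fold and 91.0% of those changed 2-fold. Smaller changes were not simulated. Every member differed by less than 1.5-fold, so these shares do not tell how often changes of that size would be found. Lengths, overlaps and shared 50-base stretches came from GENCODE M21, and promoters from RefSeq. Depth was the value at which 77.3% to 80.0% of low FPKM values of genes with 1 transcript came within 0.05 of whole fragments, or within the table's rounding where that is wider; it is an estimate with an unknown error. Summaries and plots used Python 3.11.15. The members and lists were chosen with earlier results of these data known. Every member is described. In other pathway lists the genes past the threshold, or 1 or 2 with the smallest p, are named. In marker lists some further genes were chosen after their values were seen. The settings tried were another pseudocount, no filter, 3 other scalings, no intensity trend, a replicate block and each library left out; removal of a length trend was added after seeing the data.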

Additional observations from a re-analysis of the deposited data

How the results depend on the processing

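With 0 members called in limma, calls appeared after rescaling to TPM (6) and when single libraries were left out (0 to 1); 0 were called with the other settings. The members at an unadjusted p under 0.05 numbered 17 after rescaling to TPM and 5 to 18 with a library left out, against 7. Their median log2 fold change lay between -0.33 and -0.12 in all settings. Over all genes, 220 calls became 8 without the filter, 954 in TPM, 102 after quantile normalization, 662 after median centring, 36 without the intensity trend, 33 with a length trend removed and 1 to 805 with a library left out. With the replicate number as a block there were 24 calls and 0 members. Same-numbered libraries had deviations from their group means correlated at -0.129, 0.161 and 0.295, and not every library correlated best with its own number. The labels do not say whether the numbers pair the samples. These correlations cannot decide it, because the deviations within a group sum to 0 and are tied to each other. Signs turned in members near 0. Ebp was at -0.11 in TPM, -0.043 with the length trend removed and -0.037 to 0.084 with a library left out. Srebf1 was at -0.11 in TPM and -0.12 to 0.20 with a library left out. Fasn was at 0.029 with the length trend removed, Insig1 at 0.00095 after median centring and -0.079 to 0.026 with a library left out, and Fdft1 at -0.066 to 0.020. The cause of these changes was not tested.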
